A study of Mus musculus with 8 samples.

Results

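Cd14 and Clec7a are 2 of the 10970 genes in a table of unique molecular identifier (UMI) counts from single mouse neutrophils, and their rows were chosen by name. Both encode pattern recognition receptors of the myeloid surface. CD14 is a co-receptor, anchored in the membrane or shed, that takes lipopolysaccharide (LPS) from LPS-binding protein and hands it to the TLR4 and MD-2 complex. Clec7a encodes Dectin-1, a C-type lectin receptor that binds fungal beta-glucan and signals through the kinase SYK and the adaptor CARD9. Mature neutrophils are known to carry both, CD14 at lower levels than monocytes.

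The neutrophils came from male C57BL/6J mice of 7 to 12 weeks that received an intraperitoneal injection of PBS or of LPS at 0.5 mg/kg. The 4 groups were PBS-primed and LPS-primed neutrophils of peripheral blood (PB) and of bone marrow (BM). They were enriched with the EasySep mouse neutrophil kit, and each cell was then picked by mouth pipette. The methods place the preparation 4 h after either injection, whereas by the labels PBS stands for 0 h and LPS for 4 h. The names of 711 cells, which the deposited annotation places in batch 7, match 8 labelled samples, 2 in each group, with 83 to 92 cells and 3240559 to 8361677 UMIs each. The other 710 cells, in batch 6, carry a group and a plate but match no labelled sample, so their 9 plates are given below as pooled values with no error. They entered a test only in an alternative fit of both batches, where the pooled cells of each group stood as 1 library. Nothing in the labels says that the 2 samples of a group came from separate mice, so the p-values measure the spread between samples only.

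Some facts of the whole table bear on both genes. All 13 neutrophil markers searched were detected in every library, with a summed level in CPM (the UMIs of a gene scaled to the same total in each library) of 146912 and 155514 in PBS-primed PB and 290142 to 411503 in the other 6 samples. Of the 8 defining monocyte and macrophage markers, 7 were in the table, and they summed to 232.4 to 593.8 CPM in PBS-primed PB, 852.3 to 996.8 in LPS-primed PB, 951.9 to 1052 in PBS-primed BM and 895.7 to 914.5 in LPS-primed BM. In the LPS-primed PB samples 4 of these 7 were at 0 (Ccr2, Cx3cr1, F13a1 and Ms4a6c), while Ly6c2 stood at 874 and 640 CPM, Csf1r at 95 and 174 and Adgre1 at 27.5 and 38.1. The full monocyte and macrophage list, with 15 of 18 genes in the table, summed to 1178 and 1203 CPM in PBS-primed PB, 2330 and 2387 in LPS-primed PB and 2179 to 2773 in the BM samples. Of 6 liver genes, the summed level in the PB samples was 1519 and 2323 CPM with PBS and 851.8 and 884.4 with LPS. It was at most 15.93 in the BM samples and 1.08 in the PB plates of batch 6. T and NK cell markers summed to 453.6 and 564.1 CPM in PBS-primed PB and to at most 2.04 in LPS-primed PB. Markers of most other blood cells searched were lower in LPS-primed PB as well, each pair given as lowest and highest sample. Dendritic cell markers went from 194 and 346 to 6.72 and 24.8 CPM. B cell markers went from 159 and 244 to 51.8 and 79.7, and platelet and erythroid markers from 288 and 423 to 73.4 and 124. Eosinophil and basophil markers, with 2 of 8 genes in the table, overlapped, at 2.47 and 22.2 CPM with PBS and 0 and 28.3 with LPS. In the PB plates of batch 6, dendritic cell markers summed to 542 and 772 CPM with PBS and 8.90 and 168 with LPS. Platelet and erythroid markers there summed to 1139 and 2718 against 1.41 and 49.6. B cell markers overlapped there, at 258.7 and 433.1 against 41.2 and 259.05. At least 3 defining monocyte markers were held by 42 of 88 and 15 of 84 PBS-primed PB cells of batch 6. With LPS they were held by 26 of 95 and 25 of 91. Apart from fits without cells that held monocyte markers, the part of these genes in the results below was not tested. All 95 cell barcodes occur in at least 2 of the 17 libraries. Scaling mattered in PB: with the trimmed mean of M-values (TMM) the median gene changed by -0.11 on the log2 scale after LPS, and with library size alone by -1.02, which turned 294 higher and 40 lower genes into 140 and 268. In the same order the split went from 2 and 4 to 6 and 4 for LPS in BM, from 100 and 121 to 213 and 84 for PBS-primed PB against BM, from 277 and 39 to 157 and 106 for LPS-primed PB against BM, and from 123 and 4 to 45 and 19 for the difference between both LPS effects.

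In the NCBIM37 (mm9) assembly with GENCODE vM1 annotation, Clec7a (ENSMUSG00000079293.1) lies at chr6:129411611-129422790 on the minus strand, with 1 transcript of 6 exons and a 3′ UTR at 129411611-129413061, and 0 other annotated genes overlap it.

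No sequence of Cd14 is printed. Clec7a passed the test between PB and BM in both conditions in the main fit, but not in every refit. In batch 6 its direction under LPS was the opposite. Because of the main fit, the 250 bases that precede the annotated start of Clec7a are shown. They lie at chr6:129422791-129423040 (NCBIM37) and are written 5′ to 3′ on the minus strand, with capitals marking a match to GAGGAA, the core bound by PU.1, a myeloid transcription factor.
Clec7a: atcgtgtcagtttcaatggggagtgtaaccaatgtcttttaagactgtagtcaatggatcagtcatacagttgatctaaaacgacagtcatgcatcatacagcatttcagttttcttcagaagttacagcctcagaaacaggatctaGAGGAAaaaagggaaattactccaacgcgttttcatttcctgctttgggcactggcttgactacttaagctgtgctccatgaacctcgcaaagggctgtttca
Each motif was searched on both strands. GAGGAA matched once, starting 103 bases before the start, and 23.0% of the windows of the same length before 22375 protein-coding genes hold it as well. TTGCNNAA, a core of the C/EBP motif, matched 0 times against 9.16% of windows, and the NF-kB consensus 0 times against 4.14%. A match describes letters only, and its absence says nothing about binding.

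Cd14 was higher in LPS-primed than in PBS-primed PB neutrophils in every library of both batches. In CPM its level was 87.3 and 126 with PBS and 1173 and 1388 with LPS in the PB samples. The groups did not overlap, and the pooled samples differed 12.5-fold in CPM and 18.4-fold in UMIs per cell. In the edgeR quasi-likelihood test the log2 fold change was 4.51 (SE 0.71, 95% interval 2.94 to 6.07) with an adjusted p of 0.00423, and 294 of 8478 genes tested (3.47%) were called higher in this comparison. Cd14 ranked 74th among those 294 by fold change. The plates of batch 6 gave 121 and 100 CPM in PBS-primed PB and 1239 and 1069 CPM in LPS-primed PB, a 10.6-fold ratio of the pooled cells. In NCBIM37 the gene (ENSMUSG00000051439.6) lies at chr18:36884728-36886390 on the minus strand, with 1 transcript of 2 exons, and 0 other annotated genes overlap it. The adjusted p rose to 0.0945 without the first and to 0.0832 without the second PBS-primed PB sample, at log2 fold changes of 4.21 and 4.75. Without cells that held UMIs of at least 3 defining monocyte markers (26 PBS-primed and 20 LPS-primed PB cells) the log2 fold change was 4.68 with an adjusted p of 0.00715.

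**Figure D1:**
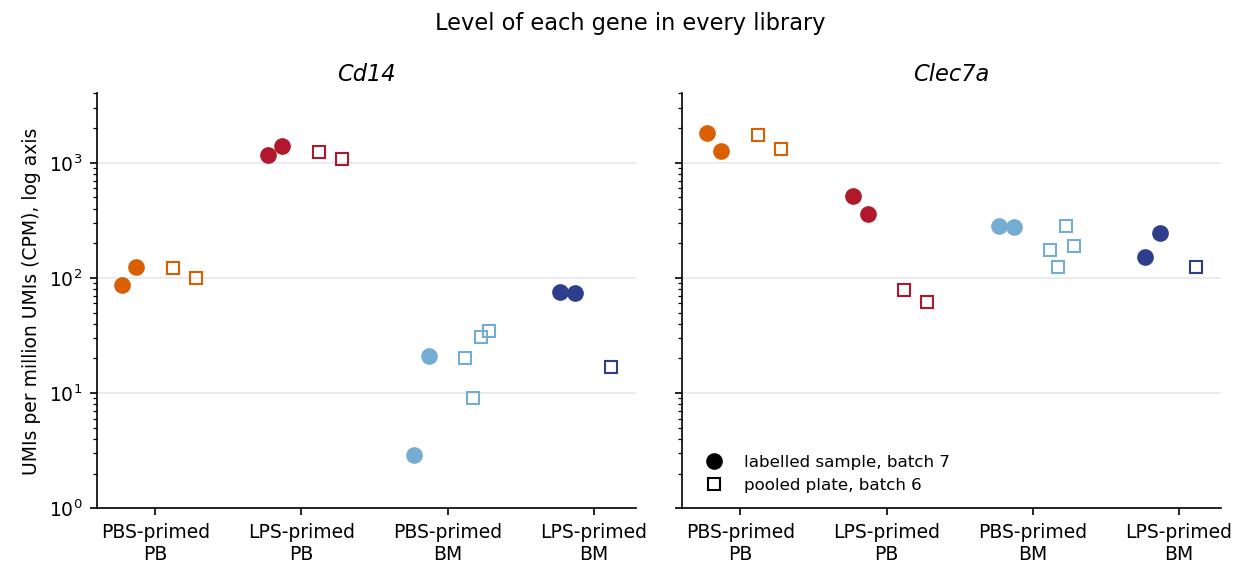
Level of Cd14 (left) and Clec7a (right) in CPM on a log axis for each group, with filled circles for the 2 labelled samples of batch 7 and open squares for the pooled plates of batch 6. Cd14 lies between 1069 and 1388 CPM in all 4 LPS-primed PB libraries, while Clec7a there lies at 362 and 512 CPM in batch 7 and at 62.3 and 78.7 CPM in batch 6.

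After LPS, Cd14 was detected in a larger share of PB cells, and the median cell held more of its UMIs. A share at fixed depth grows with the level per cell. More expressing cells and more transcripts per cell therefore cannot be told apart by it. When each cell was thinned to 5000 UMIs, so that depth was equal, a Cd14 UMI was found in 8.89% of cells (95% Clopper-Pearson interval 3.92 to 16.8) and 16.3% (9.20 to 25.8) of the PB samples given PBS. With LPS it was found in 65.9% (55.3 to 75.6) and 62.8% (51.7 to 73.0). Without thinning the shares were 36.7% and 44.2% against 90.1% and 86.0%, at median depths of 39096.5 and 50937 UMIs per cell in the pooled groups. These intervals cover counting error only. The median PB cell held 0 Cd14 UMIs in both samples with PBS, and 14 and 18 with LPS. In PBS-primed PB, a few cells carried most of the signal: the 2 highest cells held 66.1% and 41.3% of all Cd14 UMIs of their sample, against 18.2% and 20.5% in LPS-primed PB. With those 2 cells of each sample left out, the levels were 31 and 76.1 CPM against 992 and 1187 CPM. This picks cells by the tested gene and lowers PBS-primed PB most, so it is a description and not a test of the rise.

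In BM, Cd14 was low, and the size of its change after LPS varied with the samples kept and with the batch. With PBS its BM samples stood at 2.87 and 21.0 CPM, and with LPS at 76.1 and 73.3 CPM. The groups did not overlap, but the fold change of 2.43 on the log2 scale (SE 0.66, 95% interval 0.98 to 3.88) did not pass the test (edgeR adjusted p = 0.379), where 2 genes (0.0236%) were called higher and 4 (0.0472%) lower. In the second PBS-primed BM sample, 2 cells held 84.7% of the Cd14 UMIs. With the 2 highest cells of each sample left out, the levels were 2.20 and 3.32 CPM with PBS and 48.3 and 50.8 CPM with LPS. This removal picks cells by the tested gene, so it is a description and not a test. The log2 fold change was 4.53 without the second PBS-primed BM sample and 1.61 without the first. Each of these fits leaves 1 PBS-primed BM sample, so they are given as effect sizes only. With all samples kept, the log2 fold change was 1.32 with thinned cells and 1.69 with both batches, neither of which passed. The plates of batch 6 showed no such difference: the 4 PBS-primed BM plates gave 20.1, 9.12, 30.5 and 34.4 CPM and the LPS-primed BM plate 17.0 CPM, a ratio of 0.859 for the pooled cells. After thinning, 4.82% and 7.61% of PBS-primed and 8.79% and 10.9% of LPS-primed BM cells had a Cd14 UMI, and the counting intervals of all 4 samples overlapped.

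Ordered by level, Cd14 ran from LPS-primed PB through PBS-primed PB and LPS-primed BM to PBS-primed BM in batch 7. LPS-primed PB exceeded LPS-primed BM by 4.68 on the log2 scale (SE 0.71, edgeR adjusted p = 0.00361), a call that all 15 refits of the whole table kept, in a comparison with 277 genes (3.27%) called higher and 39 (0.46%) lower. PBS-primed PB and LPS-primed BM, the neighbours in the middle of the order, differed by 0.17 (SE 0.62, 95% interval -1.19 to 1.54, adjusted p = 0.942). PBS-primed PB exceeded PBS-primed BM by 2.6 (SE 0.66), which missed the threshold (adjusted p = 0.0709) with TMM and passed it in 9 of 15 refits, among them those with library size alone (3.15, adjusted p = 0.0283) and without the first (1.79, adjusted p = 0.0320) or the second (4.71, adjusted p = 0.000277) PBS-primed BM sample. It did not pass with thinned cells (1.42, adjusted p = 0.0935) or without cells with monocyte markers (2.27, adjusted p = 0.165). In this comparison 100 genes (1.18%) were called higher and 121 (1.43%) lower. In batch 6 the pooled PBS-primed PB cells were 5.55-fold above the PBS-primed BM cells. The LPS effect on Cd14 in PB exceeded that in BM by 2.08 (SE 0.89, 95% interval 0.12 to 4.04), a difference that did not pass the test (adjusted p = 0.345), where 123 genes (1.45%) were called higher and 4 (0.0472%) lower. This value rested on the second PBS-primed BM sample, without which it was -0.02, and it was 2.90 without the first. Among the refits of the whole table that kept all 8 samples, the same difference passed with thinned cells (2.92, edgeR adjusted p = 0.0157). It also passed there with both batches (2.78, adjusted p = 0.0495). Fits that left out a sample are given as effect sizes only. With library size alone it was 0.95 and did not pass.

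Clec7a showed the reverse order in PB. In CPM the PB samples stood at 1814 and 1259 with PBS and at 512 and 362 with LPS. The groups did not overlap and the pooled CPM was 3.63-fold lower after LPS, or 0.406 times the UMIs per cell. The test did not pass the threshold: with TMM the log2 fold change was -0.91 (SE 0.32, 95% interval -1.62 to -0.21, edgeR adjusted p = 0.175), in a comparison with 40 genes (0.472%) called lower. It passed with library size alone (-1.82, adjusted p = 0.0101), where the median gene stood at -1.02 and Clec7a therefore 0.80 below it, and with DESeq2 (-0.99, adjusted p = 0.0231). The fit of both batches with a batch term gave -1.62 (adjusted p = 0.00966). Without cells that held at least 3 defining monocyte markers the log2 fold change was -0.69 (adjusted p = 0.280).

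The gap in Clec7a between LPS-primed and PBS-primed PB was wider in the pooled plates of batch 6 than in the samples of batch 7, a difference with no test. The PBS-primed PB plates held 1732 and 1322 CPM, close to the samples of batch 7, while the LPS-primed PB plates held 78.7 and 62.3 CPM, below each of the 5 BM plates of that batch at 125 to 283 CPM. The pooled ratio was 21.1-fold there. Per cell and after thinning, a Clec7a UMI was found in 88.9% (80.5 to 94.5) and 83.7% (74.2 to 90.8) of PBS-primed PB cells and in 61.5% (50.8 to 71.6) and 47.7% (36.8 to 58.7) of LPS-primed PB cells of batch 7. In the LPS-primed PB plates of batch 6 the share was 10.5% and 12.1%, against 88.6% and 76.2% in the PBS-primed plates. Unthinned, the LPS-primed PB shares were 93.4% and 81.4% in batch 7 and 69.5% and 63.7% in batch 6. The median PB cell of batch 7 held 54.5 and 24 Clec7a UMIs with PBS, and 12 and 3 with LPS, while in both LPS-primed PB plates of batch 6 it held 1.

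The batches also differed in how the authors' clusters divided the LPS-primed PB cells. In batch 7, 83 of 177 LPS-primed PB cells carried the cluster label 1, which also covered 174 of the 176 PBS-primed PB cells, and 84 carried the label 2. In batch 6, 185 of 186 LPS-primed PB cells carried the label 2. The clusters were made from the expression of these cells, so their values are a description with no test. Cells labelled 2 held 1743 and 1809 CPM of Cd14 in the 2 samples against 451 and 552 CPM in cells labelled 1, and 241 and 103 CPM of Clec7a against 877 and 1056 CPM. Within the label 1 of batch 7, LPS-primed PB cells still held more Cd14 and less Clec7a than PBS-primed PB cells, 488 against 103 CPM and 943 against 1612 CPM in the pooled cells. Cells labelled 2 of batch 7 held more Clec7a, at 168 CPM in the pooled cells, than those of batch 6 at 48.5 CPM, and the label was not carried by any PBS-primed PB cell. Median depth differed between the labels, at 42210 UMIs per cell for label 1 and 76895.5 for label 2 in the LPS-primed PB cells of batch 7.

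**Figure D2:**
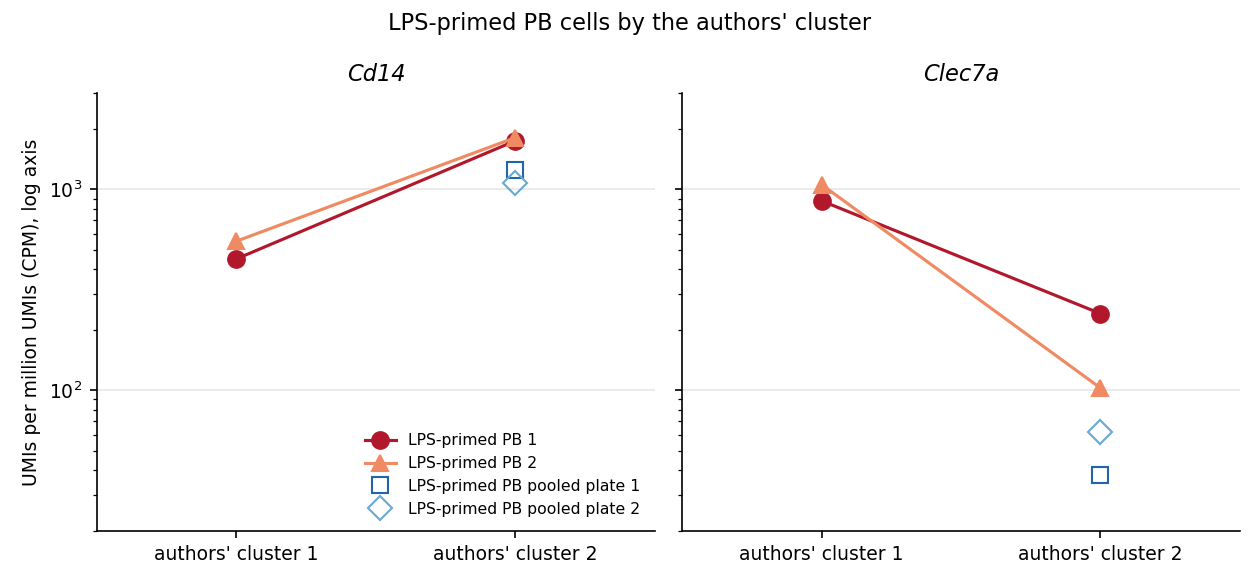
Cd14 (left) and Clec7a (right) in CPM on a log axis in LPS-primed PB cells, by the cluster label the authors deposited; filled symbols with lines are the 2 samples of batch 7 and open symbols the 2 pooled plates of batch 6, and subsets under 20 cells are left out. In both samples Cd14 is higher and Clec7a lower in cells labelled 2 than in cells labelled 1.

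Both receptors were detected in the same cell most often in LPS-primed PB of batch 7. After thinning, 133 of 176 PBS-primed PB cells of batch 7 had UMIs of Clec7a only, 19 of both, 3 of Cd14 only and 21 of neither. Among 177 LPS-primed PB cells, 43 had Clec7a only, 54 both, 60 Cd14 only and 20 neither. In the 186 LPS-primed PB cells of batch 6 the counts were 6, 15, 125 and 40. In BM, neither gene was detected in 120 of 175 PBS-primed and 110 of 183 LPS-primed cells of batch 7, and both in 1 and 9 cells. Across the cells of the LPS-primed PB samples, Spearman's rho between the CPM of both genes was -0.16 (91 cells) and -0.31 (86 cells), and in the LPS-primed PB plates of batch 6 -0.15 (95 cells) and 0.07 (91 cells), a weak relation of either sign among cells that share a library and differ in depth.

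**Figure D3:**
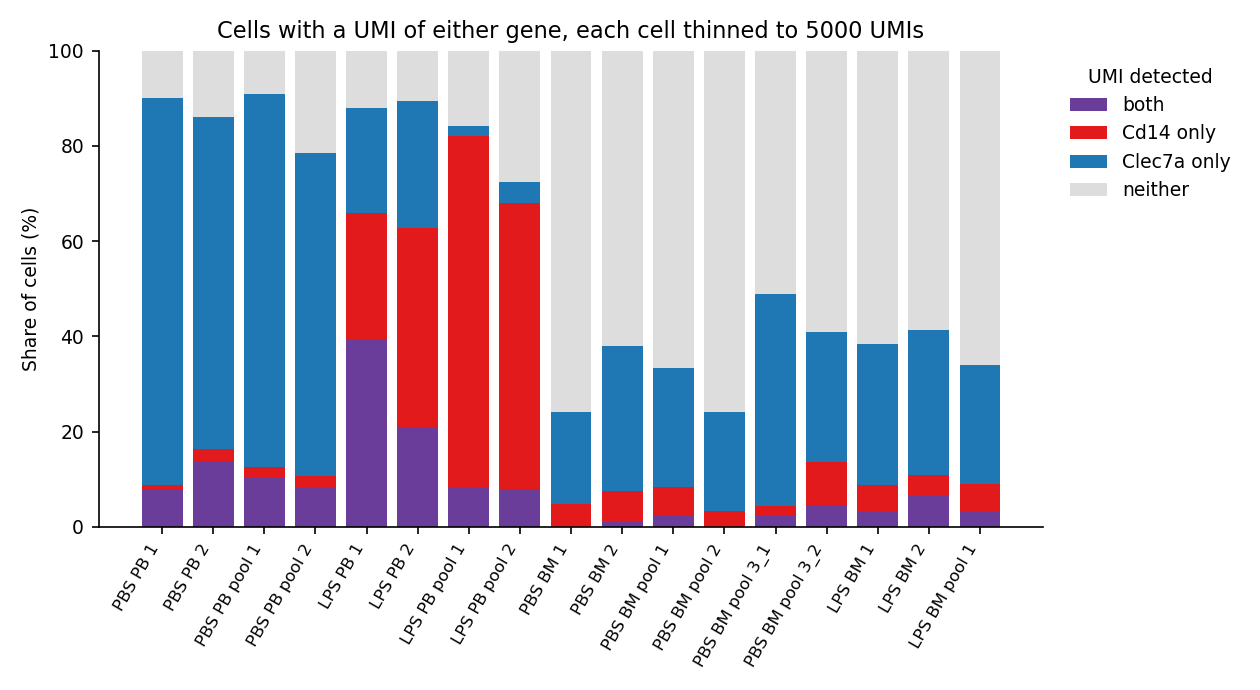
Share of cells in percent with a UMI of both genes, Cd14 only, Clec7a only or neither, each cell thinned to 5000 UMIs, for the 8 samples and the 9 pooled plates of batch 6 ("pool"). Clec7a only is the most frequent class in the PBS-primed PB libraries, Cd14 only rises to 73.7% and 60.4% in the LPS-primed PB plates of batch 6, and neither is the most frequent class in every BM library.

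Clec7a was higher in PB than in BM neutrophils under PBS. The BM samples held 281 and 279 CPM with PBS and 151 and 244 CPM with LPS, so that no PBS-primed PB sample overlapped with BM. PBS-primed PB exceeded PBS-primed BM by 1.94 on the log2 scale (SE 0.33, edgeR adjusted p = 0.00971). The adjusted p was 0.0511 without the first PBS-primed BM sample and 0.0842 without the first PBS-primed PB sample, at 1.92 and 1.69. In batch 6 the pooled ratio was 8.49-fold. Most PBS-primed PB and BM cells carried different labels of the authors' clusters. In batch 7, 162 PBS-primed BM cells labelled 0 held 169 CPM of Clec7a, and 13 labelled 1 held 1552 CPM. The 174 PBS-primed PB cells labelled 1 held 1612 CPM. In batch 6 the BM values were 106 CPM in 236 cells and 1341 CPM in 28. The labels were made from expression, so these values are a description with no test. LPS-primed PB exceeded LPS-primed BM by 1.71 (SE 0.32, adjusted p = 0.0128), but this call was lost with library size alone (1.14, adjusted p = 0.0852), without the first LPS-primed BM sample (1.40, adjusted p = 0.163) and with both batches in the fit (1.22, adjusted p = 0.0629). In batch 6 alone the direction was the opposite, with a pooled ratio of 0.572.

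In BM, the log2 fold change of Clec7a after LPS was -0.69 (SE 0.32, 95% interval -1.39 to 0.015, edgeR adjusted p = 0.610), which passed in 0 of 15 refits, and the ratio of the pooled cells was 0.711 in batch 7 and 0.703 in batch 6. Both LPS-primed BM samples lay below both PBS-primed ones. The 2 highest cells held 43.1% and 27.5% of the Clec7a UMIs with PBS and 22.6% and 16.4% with LPS. Without them the levels overlapped, at 168 and 207 CPM against 120 and 209 CPM, but this removal picks cells by the tested gene and is no test. After thinning, a Clec7a UMI was found in 19.3% and 31.5% of PBS-primed and 33.0% and 37.0% of LPS-primed BM cells, a direction opposite to that of the CPM, so no order is read from the shares. Among neighbours in the order of levels in batch 7, LPS-primed PB and PBS-primed BM differed by 1.03 (SE 0.32, adjusted p = 0.11). The LPS effect in PB minus that in BM was -0.23 (SE 0.45, 95% interval -1.21 to 0.76, adjusted p = 0.932).

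**Figure D4:**
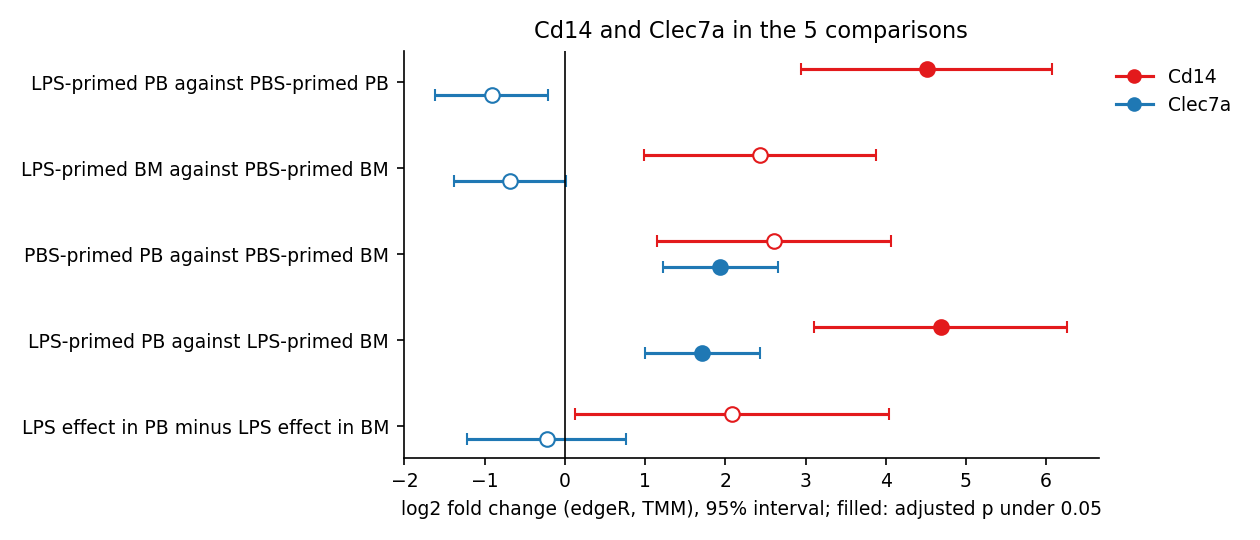
Log2 fold change (horizontal axis) of Cd14 and Clec7a in the 5 comparisons, with 95% intervals from the edgeR fit of all 8 samples; filled points have an adjusted p under 0.05. Cd14 passes for LPS-primed PB against PBS-primed PB (4.51) and against LPS-primed BM (4.68), and Clec7a passes for PB against BM under PBS (1.94) and under LPS (1.71).

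The genes around both receptors were taken from 5 lists of the CD14 and Toll-like receptor pathway, the Dectin-1 and C-type lectin pathway and other pattern recognition receptors. Of 73 genes listed besides the 2 members, 66 were in the table and 59 were tested. In LPS-primed against PBS-primed PB neutrophils, 10 of the 59 rose and 0 fell, with a median log2 fold change of 0.66 against -0.11 over all genes, of which 3.47% were called higher and 0.472% lower. The count was 16 with DESeq2, beside 627 of all 8478 genes called higher (7.4%). It fell when either PBS-primed PB sample was left out, as did the count over all genes. With library size alone 3 rose and 2 fell, beside 140 higher and 268 lower of all 8478 genes, and the medians were -0.25 and -1.02. The 3 that rose under both scalings were Irak3, Fcer1g and Fpr2, and the 2 that fell with library size alone were Tyrobp and Clec12a (-1.68, adjusted p = 0.0363, against -0.75 and 0.368 with TMM).

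Among the receptors and co-receptors of the CD14 pathway, 1 of 11 tested rose in LPS-primed PB, beside 3.47% of all genes called higher. Tlr2, which senses bacterial lipoproteins and can use CD14 as a co-receptor, went from 22.0 and 119 CPM to 327 and 382 CPM (log2 fold change 3.26, SE 0.71, edgeR adjusted p = 0.0294); the call was lost without the first PBS-primed PB sample (2.43, adjusted p = 0.112) and with library size alone (2.33, adjusted p = 0.0883). Tlr4, the signalling receptor for LPS, stood at 122 and 42.3 CPM in PBS-primed PB and 78.1 and 71.7 CPM in LPS-primed PB, overlapping ranges with a log2 fold change of 0.77 (SE 0.77, adjusted p = 0.679) that turned to -0.14 with library size alone. Ly96, which encodes MD-2, stood at 39.5 and 3.70 against 63.9 and 25 CPM (1.91, SE 1.23, adjusted p = 0.465). Neither gene of the TLR4 and MD-2 complex passed the test in PB, and whether their changes differ from that of Cd14 was not tested.

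Among 16 signalling genes of the CD14 pathway, 1 rose in LPS-primed PB, where 3.47% of all genes were called higher. Irak3, which encodes a kinase-like inhibitor of Toll-like receptor signalling, went from 23.0 and 8.02 CPM to 327 and 286 CPM (log2 fold change 5.19, SE 0.65, edgeR adjusted p = 0.000885), and this call was kept in all 15 refits. The pooled plates of batch 6 gave 105 and 25.3 against 302 and 404 CPM. Irak3 was also higher in LPS-primed PB than LPS-primed BM (4.39, SE 0.62, adjusted p = 0.00233) and lower in PBS-primed PB than PBS-primed BM (-2.52, SE 0.57, adjusted p = 0.0455), while in batch 6 the PBS-primed BM plates, at 34.9, 78.3, 25.1 and 30.9 CPM, overlapped with the PBS-primed PB plates. Myd88, the main adaptor of these receptors, was at 386 and 411 against 444 and 456 CPM in PB (1.09, SE 0.31, adjusted p = 0.0909), and it was higher in PB than in BM both under PBS (1.98, adjusted p = 0.00762) and under LPS (1.38, adjusted p = 0.0355), the latter lost in 8 of 15 refits. The lower Irak3 in PBS-primed PB was lost in 7 of 15.

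In the C-type lectin lists, 2 of 9 receptors and 2 of 14 signalling genes rose in LPS-primed PB, beside 3.47% of all genes. Clec7a itself did not pass. Clec4e, which encodes the glycolipid receptor Mincle, was at 463 and 466 against 555 and 608 CPM (log2 fold change 1.24, SE 0.30, edgeR adjusted p = 0.0448), and with library size alone the change was 0.32 (adjusted p = 0.553). The batch 6 plates went the other way, at 482 and 569 CPM with PBS and 410 and 370 with LPS. Clec5a, a receptor that signals through DAP12, was at 131 and 56.2 against 181 and 244 CPM (2.09, adjusted p = 0.0407), and its batch 6 plates overlapped, at 168 and 166 with PBS and 144 and 193 with LPS. Each of these 2 calls was lost in at least 7 of 15 refits. Clec4d, the partner of Mincle, was higher in LPS-primed PB than in LPS-primed BM (2.05, SE 0.28, adjusted p = 0.00176), and Clec12a, an inhibitory C-type lectin, was lower (-2.25, SE 0.41, adjusted p = 0.0105). Clec4a2 was lower in PBS-primed PB than in PBS-primed BM (-2.70, SE 0.43, adjusted p = 0.00692).

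Of the signalling genes, Fcer1g, the ITAM-bearing adaptor of Mincle, went from 3653 and 3344 CPM to 5430 and 5271 CPM (log2 fold change 1.53, SE 0.16, edgeR adjusted p = 0.000286). Tyrobp, which encodes DAP12, was at 7488 and 6807 against 3473 and 3878 CPM, with a log2 fold change of -0.04 (adjusted p = 0.956) with TMM and -0.96 (adjusted p = 0.00599) with library size alone. Syk, the kinase through which Dectin-1 signals, was at 302 and 276 against 212 and 269 CPM; its log2 fold change was 0.65 (SE 0.36, adjusted p = 0.387) with TMM and -0.27 with library size alone. Card9, the adaptor downstream, was at 44.2 and 0.93 against 3.9 and 13.8 CPM (-0.43, SE 1.85, adjusted p = 0.965), a spread within PBS-primed PB larger than the change.

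Of 9 other pattern recognition receptors tested, 4 rose in LPS-primed PB, where 3.47% of all genes were called higher. The formyl peptide receptors, which sense bacterial peptides, were among them: Fpr2 went from 210 and 441 to 1210 and 1404 CPM (log2 fold change 2.93, SE 0.33, edgeR adjusted p = 0.000452) and Fpr1 from 252 and 483 to 859 and 834 CPM (2.12, SE 0.33, adjusted p = 0.00392). Trem1, an amplifier of innate signalling, rose by 1.73 (adjusted p = 0.0128) and its relative Trem3 by 1.35 (adjusted p = 0.0319). In batch 6 Trem1 stood at 290 and 305 CPM with PBS and 420 and 737 with LPS, while Trem3 overlapped, at 227 and 422 against 341 and 333. Both calls were lost with library size alone and in several refits that left out a sample. In BM, 0 of the 59 genes passed the edgeR test for LPS, beside 0.0236% of all genes called higher and 0.0472% lower. Without adjustment, 7 of the 59 had a p under 0.05. By DESeq2, 2 were higher and 1 was lower, beside 119 and 77 of all genes. With thinned cells the counts were also 2 and 1, of 50 tested, beside 26 and 29 of all genes. With no filter 0 were higher and 1 was lower, beside 8 and 7 of all genes. The replicate block gave the same list counts, beside 7 and 6 of all genes. The median in the main fit was 0.17 against 0.00 over all genes. Under PBS, 1 of the 59 was higher and 4 were lower in PB than in BM, beside 1.18% and 1.43% of all genes. The 4 lower became 1 with library size alone and 9 with DESeq2, beside 84 and 441 of all genes called lower. They became fewer when a PBS-primed PB, PBS-primed BM or LPS-primed BM sample was left out, as did the lower genes over the whole table. Under LPS 6 were higher and 1 lower, beside 3.27% and 0.46%. The 6 became 12 with DESeq2 or with both batches, beside 598 of 8478 and 416 of 8622 genes called higher. They became more without the first PBS-primed BM sample and fewer without either LPS-primed BM sample. The 1 lower was lost without either LPS-primed BM sample. Between both LPS effects, 5 of the 59 differed, each higher in PB, beside 1.45% of all genes called higher and 0.0472% lower. This count was 1 with library size alone and 8 with DESeq2, beside 45 and 315 of all genes called higher. It was 3 without cells with monocyte markers, beside 109 of 8226 genes. The count fell without either LPS-primed BM sample and without the first PBS-primed PB or the first PBS-primed BM sample.

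**Figure D5:**
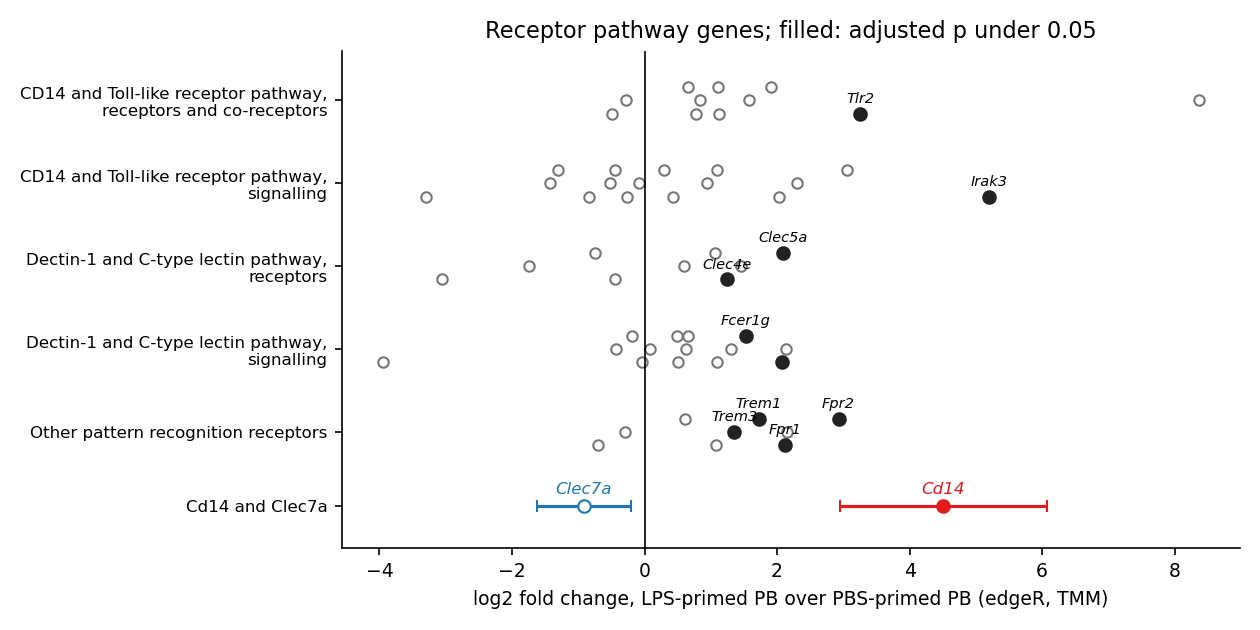
Log2 fold change in LPS-primed PB over PBS-primed PB (horizontal axis) for the 59 tested genes of the 5 receptor lists, 1 point per gene, and for Cd14 and Clec7a with 95% intervals; filled points have an adjusted p under 0.05, and those described in the text carry their symbol. The 10 filled list genes lie between 1.24 (Clec4e) and 5.19 (Irak3), Cd14 at 4.51 and Clec7a at -0.91, and the open point at 8.37 is Tlr7, which did not pass the test.

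The genes whose log2 CPM was most like that of Cd14 over the 8 samples, among 3371 candidates with at least 50 CPM in their highest group, were Slfn8 (Pearson's r 0.99), Irf7 (0.98), Ddx58 (0.97), Tor3a (0.97) and Hibadh (0.97). Irf7, a transcription factor of the interferon response, ran from 182 and 202 CPM in PBS-primed PB to 1047 and 1035 in LPS-primed PB and from 20.5 and 40.5 in PBS-primed BM to 134 and 76.2 in LPS-primed BM. Ddx58 encodes RIG-I, a cytosolic RNA sensor, and was at 327 and 318 CPM in LPS-primed PB against 70.6 and 82.7 CPM in PBS-primed PB. Over the 9 plates of batch 6 the first 4 kept an r of 0.81 to 0.95 with Cd14, and Hibadh had -0.10. The genes most like Clec7a were Sirpb1b (0.95), Egr1 (0.94), Epha1 (0.94), Fxyd5 (0.94) and Ier2 (0.94), with 0.78 to 0.92 over the plates of batch 6. Egr1 and Ier2 are immediate early genes, and Egr1 was at 233 and 287 CPM in PBS-primed PB and at most 32.3 CPM in the other samples. With 8 samples in 4 groups, an r above 0.9 was reached by 82 candidates for Cd14 and 28 for Clec7a, so these values describe a pattern over groups and not a particular tie.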

How the data were processed

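Single neutrophils of PB and BM were sequenced by SCRB-seq, which tags each cell with a barcode and each captured transcript with a UMI. The submitters' processing notes name cutadapt 1.15, STAR 2.6.0a and HTSeq 0.11.2, and the methods give mm9. The authors deposited UMI counts per gene and cell, with no normalization, and an annotation with each cell's batch, plate, cluster, total UMI count and the fraction or ratio of ERCC spike-ins. That deposited fraction had a median of 0.40 to 0.64 in the groups and was not used for scaling. Which annotation was counted is not given in the sources used here.

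UMI counts were summed over the cells of each of the 8 labelled samples. Genes with a UMI in at least 10 cells that passed filterByExpr (8478) were tested with edgeR 4.0.16 (TMM, glmQLFit, glmQLFTest, R 4.3.3) in a model with a term for each group. P-values are two-sided with Benjamini-Hochberg adjustment over all genes tested, at a threshold of 0.05. In batch 7 sample and plate coincide. The columns that match no sample were used as pooled values and, in the fit of both batches, as 1 library per group, and 0 value columns were left unmatched. Shares of cells used cells thinned to 5000 UMIs (random seed 11), with exact Clopper-Pearson intervals at 95%. Doublets were not called, since cells were picked by pipette.

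The members, the lists and the tests were chosen with earlier results of these data known. Named genes are the 2 members, list genes past the threshold in a comparison and, whatever they did, Tlr4, Ly96, Tlr2, Myd88, Syk and Card9, and the 5 genes most like each member. Alternatives were DESeq2 1.42.0, library size alone, no filter, a replicate block, thinned cells, both batches with a batch term, removal of cells with at least 3 defining monocyte markers, removal of the 2 highest cells and leaving out each sample. The comparisons of neighbours in the order of levels that cross tissue and treatment were added after seeing the data. A gene that met the naming rule is counted in its list but not reported by itself here.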

Additional observations from a re-analysis of the deposited data

Results flagged for a closer look

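The LPS effect differed between PB and BM, by the interaction term of the edgeR fit with adjustment over all genes, for 5 of the 59 tested genes of the receptor lists, beside 1.45% of all genes called higher and 0.0472% lower. The 5 became 1 with library size alone and 8 with DESeq2, beside 45 and 315 of all genes called higher. They became fewer without either LPS-primed BM sample and without the first PBS-primed PB sample. The difference on the log2 scale was 6.92 for Irak3 (SE 0.84, adjusted p = 0.00151), 1.85 for Fcer1g (SE 0.23, adjusted p = 0.00151), 2.25 for Fpr2 (SE 0.44, adjusted p = 0.0303), 3.62 for Nod1 (SE 0.75, adjusted p = 0.0404) and 2.18 for Trem1 (SE 0.45, adjusted p = 0.0404). Irak3 stood at 83.0 and 43.9 CPM in PBS-primed BM and at 25.9 and 17.8 CPM in LPS-primed BM, while in batch 6 the PBS-primed BM plates, at 34.9, 78.3, 25.1 and 30.9 CPM, lay on both sides of the LPS-primed BM plate at 38.2 CPM. Nod1, a cytosolic sensor of bacterial peptidoglycan, stood at 141 and 97.5 against 36.2 and 61.2 CPM in BM and at 59.7 and 66.7 against 102 and 194 CPM in PB. Of these 5 differences, that of Irak3 was kept in 15 of 15 refits, that of Fcer1g in 14, that of Fpr2 in 10 and those of Nod1 and Trem1 in 6 each. No group has more than 2 samples, so none could be examined for a sample that stands apart.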

How the results depend on the processing

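The calls on Cd14 in LPS-primed PB against LPS-primed BM were kept under every alternative. For LPS in PB, Cd14 ranged from 4.21 to 4.75 when a sample was left out, Clec7a from -1.20 to -0.68, and Clec7a passed with DESeq2 (-0.99), library size alone (-1.82) and both batches (-1.62). For LPS in BM, Cd14 ranged from 1.61 to 4.53 when a sample was left out, and was 1.32 with thinned cells and 1.69 with both batches. Without the 2 highest cells Cd14 was at 3.96, a description and not a test. Clec7a ranged from -1.09 to -0.39. For PBS-primed PB against PBS-primed BM, Cd14 ranged from 1.79 to 4.71 when a sample was left out. It passed with DESeq2 (2.67), library size alone (3.15), no filter (2.61), the replicate block (2.85) and both batches (2.36). It did not pass with thinned cells (1.42) or without cells with monocyte markers (2.27). Without the 2 highest cells Cd14 was at 3.74, again a description and not a test. Removing the highest cells picks cells by the tested gene and therefore lowers a group most where few cells hold its UMIs. In the same comparison Clec7a ranged from 1.69 to 2.20. For LPS-primed PB against LPS-primed BM, Clec7a ranged from 1.40 to 2.12, and was 1.14 with library size alone and 1.22 with both batches. For the difference between both LPS effects, Cd14 ranged from -0.017 to 2.90 when a sample was left out. Among the refits of the whole table that kept all 8 samples, Cd14 passed with thinned cells (2.92) and both batches (2.78). With library size alone Cd14 was at 0.95. Clec7a ranged from -0.55 to 0.18 and was 0.050 without cells with monocyte markers, -1.32 with library size alone and -1.0 with both batches. Of the named list genes, those whose sign turned were Card9 (-1.72 to 4.10) and Tyrobp (-0.21 to 0.045) when a sample was left out, and Syk (-0.27) and Tlr4 (-0.14) with library size alone. The cause was not tested.

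The number of genes called for LPS in PB was 334, and 1057 with DESeq2, 651 with both batches and 146 to 400 without a sample. For LPS in BM it was 6, and 196 with DESeq2, 10 with library size alone, 15 with no filter, 13 with the replicate block, 55 with thinned cells, 27 with both batches and 2 to 28 without a sample. For PBS-primed PB against PBS-primed BM it was 221, and 962 with DESeq2, 416 with both batches and 108 to 342 without a sample. For LPS-primed PB against LPS-primed BM it was 316, and 951, 532 and 144 to 382 in the same order. For the difference it was 127, and 500 with DESeq2, 64 with library size alone, 203 with both batches and 80 to 168 without a sample.

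Deviations of same-numbered samples from their group means correlated at -0.03 to 0.01, so no pairing by number was found. With the replicate block Cd14 passed in PBS-primed PB against PBS-primed BM (2.85, adjusted p = 0.00874), no other call on either member changed, and the count for LPS in BM moved from 6 to 13.

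Mean shares of cells with a UMI were higher without thinning in every group. For Cd14 in PBS-primed PB, LPS-primed PB, PBS-primed BM and LPS-primed BM they were 12.6%, 64.4%, 6.21% and 9.83% after thinning to 5000 UMIs and 40.4%, 88.1%, 21.6% and 38.2% without thinning. At 10000 UMIs they were 16.1%, 74.7%, 6.05% and 18.1%, and in LPS-primed PB and LPS-primed BM with at least 2 unthinned UMIs 80.9% and 18.6%. For Clec7a they were 86.3%, 54.6%, 25.4% and 35.0% in the same groups, 97.2%, 87.4%, 65.3% and 73.2% without thinning, and 94.9%, 75.5%, 48.0% and 53.0% with at least 2 unthinned UMIs. At 10000 UMIs Clec7a was at 92.9%, 62.5%, 33.8% and 39.0%.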
